A study of Bos taurus with 12 samples.

Results

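Cumulus cells that had surrounded bovine oocytes with GV1 chromatin were compared with cumulus cells that had surrounded oocytes with GV0 chromatin, by 2-colour hybridisation on 4 arrays. These are the 4 arrays of 1 slide, chosen by their labels, out of 12 arrays in the series; the other 8 carried GV2 or GV3 cumulus RNA against GV0 on 2 further slides with 4 areas each. On every array the later stage was labelled with Cy5 and GV0 with Cy3, and no dye was swapped. The cells came from untreated cattle ovaries collected at slaughter, with the animals' age and breed not stated in the labels. Each complex of an oocyte and its cumulus was stripped on its own, its oocyte was stained to read the chromatin, and the cumulus cells of 10 complexes of one stage were then pooled for RNA, which was amplified linearly before labelling. A value is therefore the average of a pool, and fewer cells of a type cannot be told apart from less RNA per cell. The labels describe 4 biological replicates but do not say which animals a pool held, so p-values reflect only how far these pools vary.

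Cumulus cells are the granulosa-derived cells attached to the oocyte, to which they are coupled by gap junctions at the ends of fine projections through the zona pellucida. The germinal vesicle is the nucleus of the immature oocyte. In cattle, GV0 denotes chromatin spread through the whole nucleus, as in growing oocytes, and GV1 denotes the first step of its condensation, which goes on through GV2 to GV3. The chromatin class is read in the oocyte, so the comparison asks how the companion cells of an oocyte that has begun to condense its chromatin differ from those of one that has not.

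Markers of the cumulus cell were detected. All 23 markers of cumulus and granulosa identity on the array passed the filter on dim probes, and 21 were above the negative control spots on 4 of 4 arrays in the GV1 channel and 22 in the GV0 channel. INHA, the inhibin alpha subunit, had normalised signals of 38101, 37006, 37273 and 35742 in GV1 pools and of 20104, 23196, 35075 and 20805 in GV0 pools. Oocyte-defining GDF9 and ZAR1 were never above the negative controls in either channel, nor were the leukocyte markers CSF1R, ITGAM, ITGB2, LCP1 and TYROBP, the endothelial receptor FLT1 or the mesothelial marker MSLN. Other markers of these cells were above the controls. Of 20 oocyte markers on the array, 11 were above them on 4 of 4 arrays in GV1 and 13 in GV0. BMP15, NLRP5, NOBOX and ZP3 were so in both channels. The signals were low: over the 17 oocyte markers tested they summed to 2662 to 2889 in GV1 pools and 2713 to 3084 in GV0 pools. In GV1 and GV0, 11 and 9 of 24 leukocyte markers on the array were above the controls on 4 of 4 arrays. PTPRC, CD163 and CD74 were so in both channels. The counts were 8 and 10 of 15 endothelial markers, with CDH5, CLDN5 and ENG in both, and 12 and 13 of 17 epithelial markers. Between 73.5% and 83.6% of spots on these arrays were above the negative controls in Cy5 and between 73.1% and 79.5% in Cy3. Their number, 4, limits the precision of every ratio.

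The GV1 pool of area 3 stood apart in part of the stromal transcripts and in some genes of other lists. COL1A2, a chain of fibrillar type I collagen, had signals of 114, 103, 23711 and 113 in GV1 pools 1 to 4, against 168, 121, 166 and 124 in the GV0 pools. COL3A1, the chain of type III collagen, had 9678 in GV1 pool 3, against 95 to 130 in the other GV1 pools and 95 to 126 in the GV0 pools. The sterol carrier STAR had 3243 in GV1 pool 3 and 193 to 270 in the other GV1 pools, against 137 to 405 in the GV0 pools. IFI27, an interferon-induced gene, had 13663 in GV1 pool 3 and 459 to 929 in the other GV1 pools, against 1119 to 2439 in the GV0 pools. These 4 genes were picked after their values were seen. Over the 19 theca and stroma markers, all tested, the summed signal was 67154 in GV1 pool 3 and 14109 to 16272 in the other GV1 pools. In the GV0 pools it was 15342 to 18545. That sum includes COL1A2 and COL3A1. In area 3, COL1A1, COL1A2, COL3A1, DCN, LUM, PDGFRA and THY1 had log2 ratios of 1.34 to 7.16. The other members of the list, among them PDGFRB, DES, ACTA2 and INSL3, lay between -0.55 and 0.20 there. Results on matrix, stroma and interferon genes are therefore given with and without that array.

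Of 13416 genes tested, 517 were higher and 775 were lower in GV1 at an adjusted p under 0.05 (limma, Benjamini-Hochberg over 35891 probes), which is 3.85% and 5.78% of the genes tested and 9.63% together. Over probes, 1626 were higher and 2331 lower in GV1, 11% of those tested. Most of these differences were small: the median log2 ratio was 0.52 among genes that rose and -0.35 among genes that fell, and only 61 rose and 42 fell by 2-fold or more. Among the 6785 genes with a mean signal under 256, 298 rose and 512 fell, with a median size of 0.32 on the log2 scale, and 15 of them reached 2-fold. At a mean signal of 4096 or more, 33 of 1228 genes rose and 55 fell, with a median size of 0.69. The ratio had the same sign on 4 of 4 arrays for 1278 of the 1292 genes called, against 32.3% of all genes, and the GV1 and GV0 signals did not overlap for 940 of them, against 12.7% of all genes.

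The calls rest on how the spread was estimated. The fit takes it from all 12 arrays with 9 residual degrees of freedom. By their values, same-numbered areas of the 3 slides appeared to share their GV0 pool, which the labels do not state. If so, there are fewer than 9 independent deviations, and the p-values are smaller than the data warrant. With the 4 GV1 arrays alone, no probe passed: the lowest adjusted p was 0.0651 (limma), and 8486 probes had an unadjusted p under 0.05, against 9973 in the fit over 12 arrays. With area as a block 10746 probes passed, but that fit takes the spread among the GV0 pools out of the error. GV0 was always in Cy3, so a dye effect of a probe is part of its GV1 over GV0 ratio and cannot be told apart from the stage.

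**Figure D1:**
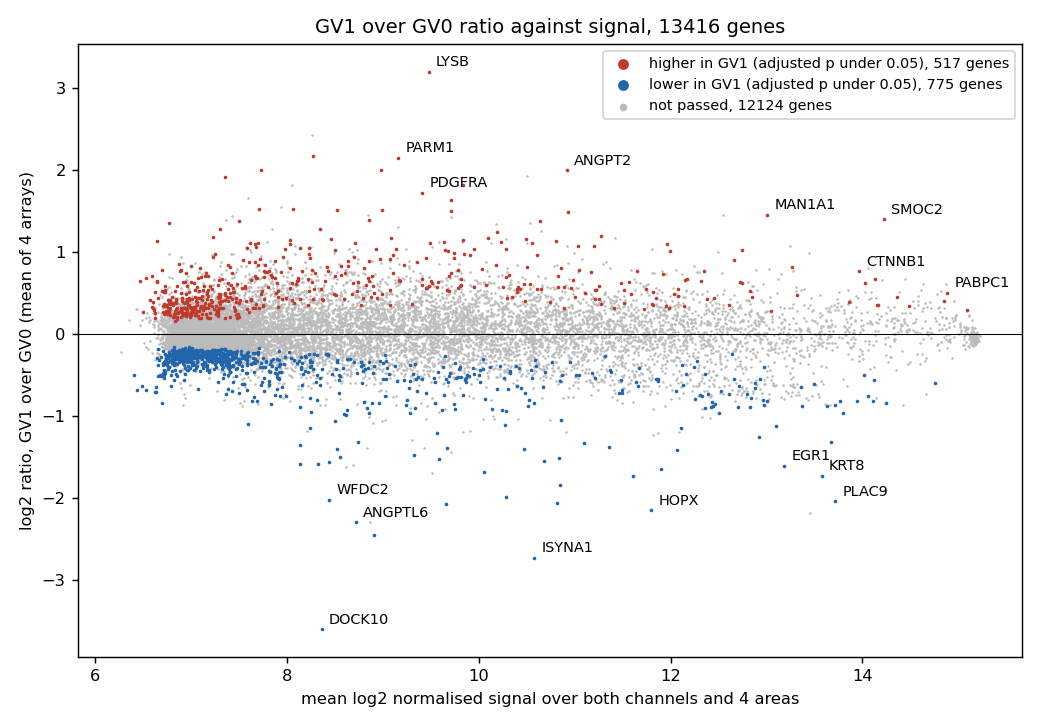
Log2 ratio of GV1 over GV0 (vertical axis, mean of 4 arrays) against the mean log2 normalised signal over both channels (horizontal axis) for 13416 genes. The 517 genes higher and 775 genes lower in GV1 are coloured, the 12124 others are grey; coloured points at the left are mostly close to 0, and 6 of the labelled genes that fell lie below -2.

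The 25 highest genes included the ligand ANGPT2, the surface proteins PARM1, NPY1R and GFRA1 and the signalling inhibitor SPRY2. ANGPT2, a vascular ligand of the receptor TIE2, had signals of 3716, 4821, 5053 and 2493 in GV1 pools, against 818, 631, 1321 and 1289 in GV0 pools. Every GV1 pool exceeded every GV0 pool, by a log2 ratio of 2.00 ± 0.30 (SE of the fit, adjusted p = 0.00325, limma). Here and below, the SE is that of the fit, which takes the spread from the arrays of all stages, not from the 4 GV1 arrays alone. The SD of the ANGPT2 log2 ratio over the 4 GV1 arrays was 0.82. PARM1, a mucin-like membrane glycoprotein, had 935, 1218, 2050 and 909 in GV1 pools and 203, 228, 248 and 473 in GV0 pools, again without overlap, with ratios of 0.94 to 3.05 on the log2 scale. NPY1R, a receptor of neuropeptide Y, had 617, 1941, 852 and 1024 in GV1 pools and 412, 363, 198 and 137 in GV0 pools, and its area 1 gave the smallest ratio, 0.58. GFRA1, the co-receptor of the growth factor GDNF, had signals of 2236 to 3963 in GV1 and of 657 to 2127 in GV0, with log2 ratios of 0.84 to 1.86. SPRY2, a feedback inhibitor of receptor tyrosine kinase signalling, had 1022 to 2487 in GV1 and 432 to 553 in GV0, with area 2 highest at a log2 ratio of 2.53.

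Other genes that rose had varied roles inside the cell or at its membrane. MAN1A1, a Golgi mannosidase that trims N-linked glycans, had signals of 13649, 18144, 16698 and 8310 in GV1 pools and 4547, 6729, 4867 and 4058 in GV0 pools. Its log2 ratio was 1.46 ± 0.22 (SE, adjusted p = 0.0036, limma), and its other 2 probes were also higher, by 0.89 and 1.35. YEATS4, a reader of acylated histones in chromatin-remodelling complexes, had 2633, 2915, 3010 and 1911 in GV1 and 1132, 1113, 1030 and 729 in GV0, with per-array log2 ratios of only 1.22 to 1.55. CADPS2, which primes dense-core vesicles for release, had 683 to 1106 in GV1 and 188 to 368 in GV0. The transcriptional regulators LHX2 and LMO2 had 421 to 907 and 1285 to 2613 in GV1, against 138 to 270 and 230 to 668 in GV0. NALCN, the sodium leak channel, had 1464 to 2300 in GV1 and 581 to 1042 in GV0, a log2 ratio of 1.25 ± 0.21 (SE). Ratios were lower but as even for TLE3, a co-repressor of transcription, at 0.77 ± 0.10 (SE, adjusted p = 0.00146, limma), and for TAP2, a peptide transporter of antigen presentation, at 0.82 ± 0.10 (SE, adjusted p = 0.00137, limma). PABPC1, the cytoplasmic poly(A)-binding protein, stood near the top of the signal range, with 34963 to 37175 in GV1 against 23627 to 27785 in GV0, a log2 ratio of 0.51 ± 0.08 (SE, adjusted p = 0.00319, limma).

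The 25 highest genes also held the secreted proteins SMOC2, NBL1 and GPX3, while the secreted PTN, ANGPTL6, WFDC2 and SERPINA5 fell. SMOC2, a calcium-binding matrix-associated protein, was among the brightest, with signals of 28153, 31891, 33014 and 31537 in GV1 pools, against 14362, 15135, 12498 and 7050 in GV0 pools. The GV1 values lay close together, and the spread of the ratio, 0.97 to 2.16 on the log2 scale, followed the GV0 values. NBL1, a secreted antagonist of bone morphogenetic proteins, had 3113 to 4577 in GV1 and 1063 to 2255 in GV0. GPX3, an extracellular glutathione peroxidase, had 1213 to 1689 in GV1 and 255 to 779 in GV0, a log2 ratio of 1.64 ± 0.38 (SE).

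**Figure D2:**
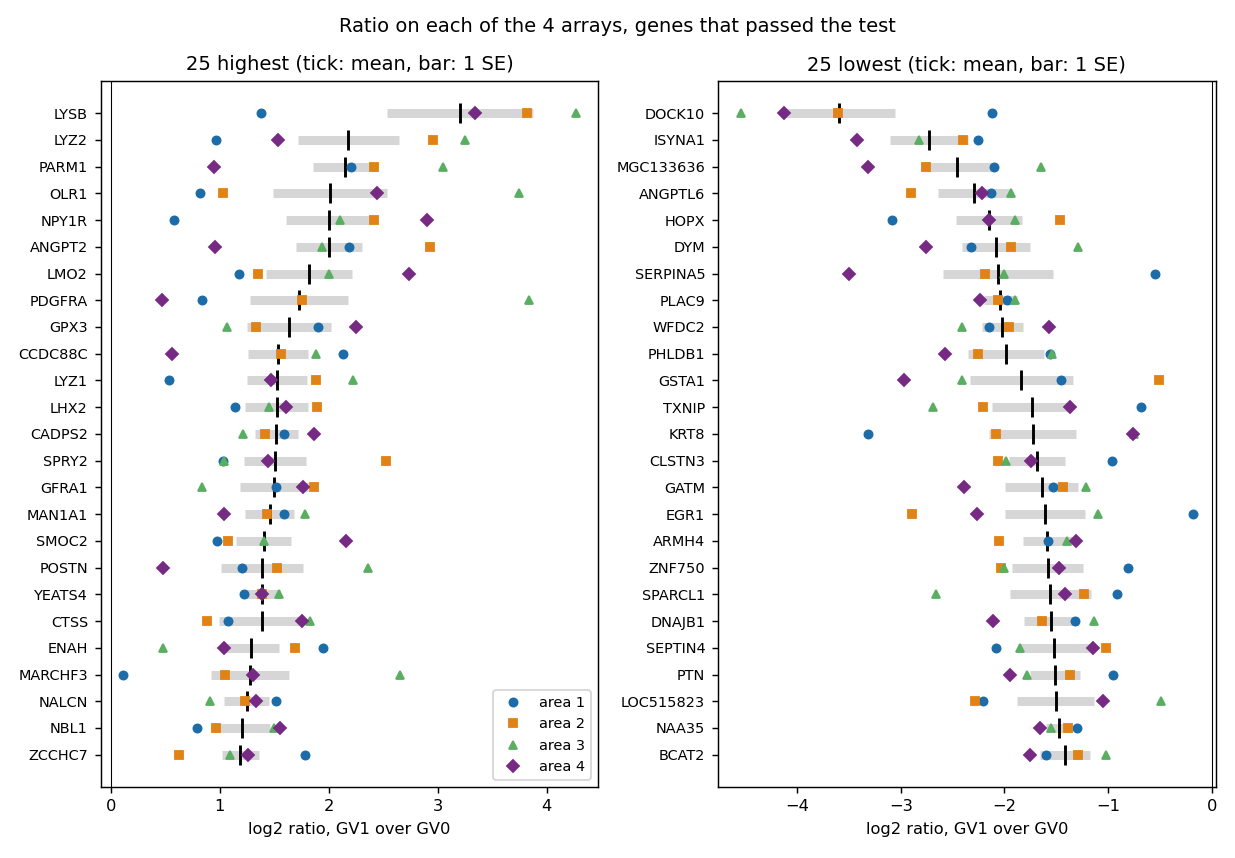
Log2 ratio of GV1 over GV0 on each of the 4 arrays (coloured symbols by area), with the mean (black tick) and 1 SE of the fit (grey bar), for the 25 highest genes (left panel) and the 25 lowest (right panel) that passed the test. The 4 symbols lie between 1.22 and 1.55 for YEATS4 and spread from 0.47 to 3.83 for PDGFRA, whose highest symbol is area 3.

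The genes that fell furthest differed in the signal they kept in GV1, from near background for DOCK10 to 6045 or more for PLAC9. DOCK10 had signals of 114, 88, 71 and 112 in GV1 pools, of which only 1 was above the negative controls, against 497, 1071, 1669 and 1949 in GV0 pools. Its log2 ratio of -3.60 ± 0.54 (SE, adjusted p = 0.00319, limma) rests on GV1 signals mostly at background, so its size is uncertain. ISYNA1, which makes inositol phosphate from glucose phosphate, had 508, 870, 443 and 640 in GV1 and 2422, 4602, 3139 and 6878 in GV0. GATM, the first enzyme of creatine synthesis, had 2057, 2930, 2508 and 1447 in GV1 and 5954, 7901, 5807 and 7571 in GV0, a log2 ratio of -1.64 ± 0.35 (SE). PLAC9, a small secreted protein, was evenly lower across areas: 6162, 6045, 7630 and 6752 in GV1 against 24186, 25198, 28446 and 31833 in GV0, with per-array log2 ratios of -2.24 to -1.90. A second PLAC9 probe gave -1.55 and also passed.

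Other genes lower in GV1 had varied roles. HOPX, a homeodomain protein that does not bind DNA itself, had 1114 to 2119 in GV1 and 5828 to 9472 in GV0, with log2 ratios of -3.09 to -1.46. ANGPTL6, an angiopoietin-like secreted factor, had 140 to 253 in GV1 and 535 to 1895 in GV0. PTN, a heparin-binding growth factor, had 1246, 1259, 879 and 989 in GV1 and 2409, 3255, 3020 and 3803 in GV0, a log2 ratio of -1.51 ± 0.24 (SE, adjusted p = 0.00444, limma). SEPTIN4, a filament-forming GTPase, had 270 to 564 in GV1 and 975 to 2182 in GV0. CLSTN3, a membrane protein of the calsyntenin family, had 458 to 687 in GV1 and 1339 to 2397 in GV0, and PHLDB1 had 471 to 721 and 1393 to 4291. Enzymes and their subunits fell too: BCAT2, the mitochondrial branched-chain aminotransferase, had 2265 to 2880 in GV1 and 4601 to 9683 in GV0. NAA35, a subunit of an N-terminal acetyltransferase, had 337 to 411 in GV1 and 880 to 1238 in GV0, with an adjusted p of 0.000204 (limma). The lowest adjusted p of the genes named was 4.03e-05 (limma), for LRP4, an agrin receptor, whose probe was not well above background in any GV1 pool. Its GV0 signals were 130 to 149, so it was at least 1.67-fold lower in GV1. Such a bound sets the bright group's mean against, on each array, the detection limit of the other channel or the probe's own signal there, whichever is higher.

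Over the 25 highest and 25 lowest genes, the GV1 and GV0 signals did not overlap for 21 and 24, against 5.7% of all genes without overlap and higher in GV1 and 6.97% without overlap and lower. The exceptions were OLR1, PDGFRA, POSTN and MARCHF3 among the higher genes and EGR1 among the lower ones. Since these genes were chosen by this contrast, the counts describe them and test nothing. A gene is represented by its brightest probe, and other kept probes existed for 15 of these 50. All of the other probes had the same sign for 11 of the 15. Over all called genes, the same held for 181 of 295 with another kept probe, against 1696 of 3307 genes with another probe in all, and for 68 of the 295 another probe passed as well. The 4 exceptions were PDGFRA, whose other probe was at -0.12, CTSS at -0.03, NAA35 at 0.02, and BCAT2, of whose other probes one was at 0.03. Outside these 50, the other probe of TAP2 was at -0.12, that of ACVR1 at -0.11 and that of SESN2 at 0.15, each opposite in sign to the probe reported, as was 1 other probe of LATS2 at -0.05.

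**Figure D3:**
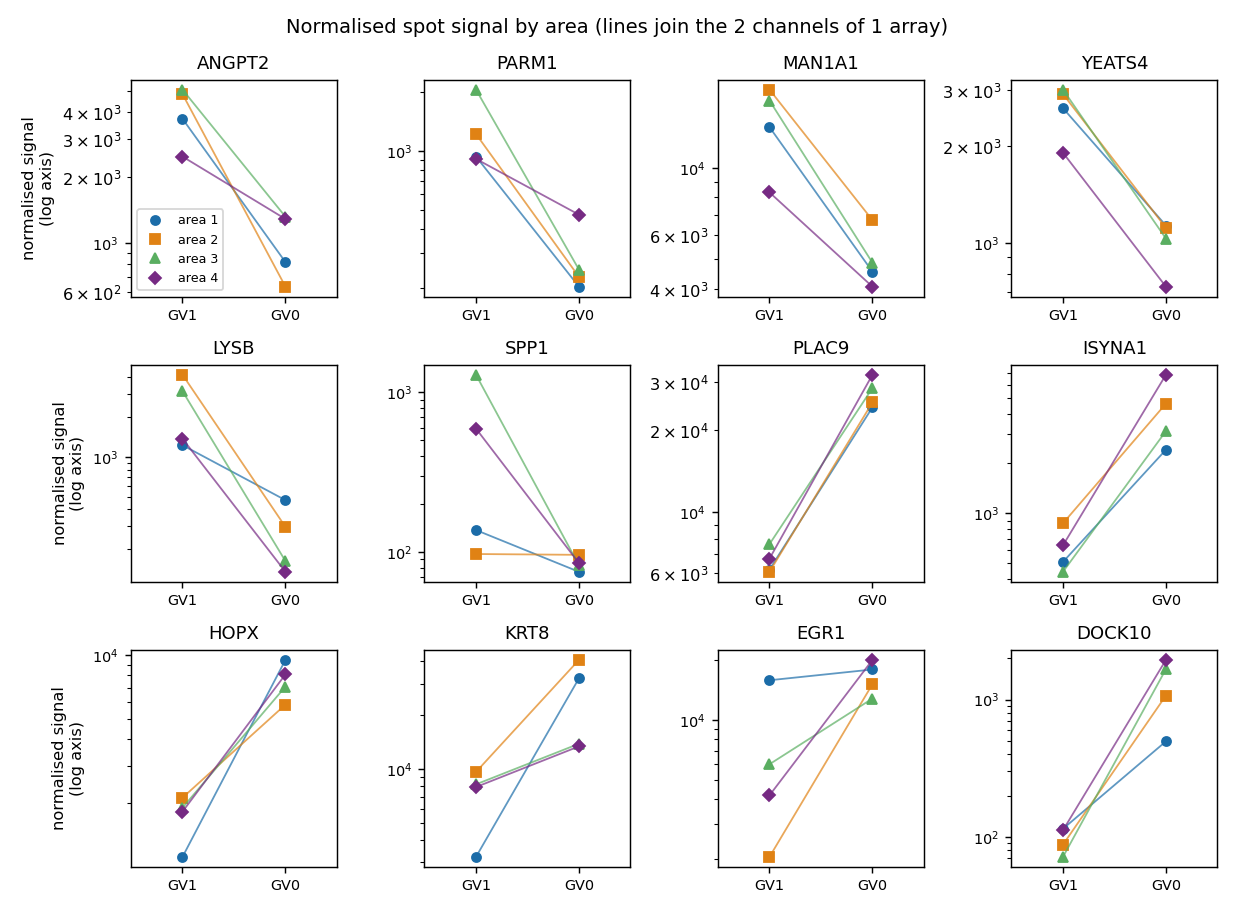
Normalised signal (log axis) of 12 genes in the GV1 channel and the GV0 channel of each array; a line joins both channels of 1 array, and colours mark the 4 areas. For MAN1A1 and PLAC9 the 4 lines run nearly parallel, for SPP1 the lines of areas 3 and 4 are the steep ones, and for EGR1 the line of area 1 is nearly flat.

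Of 5 lysozyme genes tested 3 rose, and of 15 leukocyte markers 5 rose, against 3.85% of all genes. These counts cover only members that passed the filter on dim probes, and they test nothing. The same holds for every list share below, since genes and lists were chosen with earlier results of these data known. Lysozymes cleave bacterial cell walls and in cattle form a gene family with near-identical copies, so probes of LYSB, LYZ1 and LYZ2 may share targets. The array held 9 lysozyme genes: LYSB, LYZ2 and LYZ1 rose, LYZL4 fell, LYZL6 was at -0.02 without passing, and the others did not pass the filter on dim probes. LYSB had signals of 1225, 4175, 3136 and 1371 in GV1 pools and 470, 295, 163 and 135 in GV0 pools, a log2 ratio of 3.20 ± 0.67 (SE, adjusted p = 0.0144, limma), with area 1 lowest at 1.38. LYZ2 had 354 to 1073 in GV1 and 106 to 181 in GV0, and LYZ1 had 218 to 547 in GV1 and 99 to 151 in GV0, so no lysozyme that rose overlapped between the groups. Without GV1 replicate 3, LYSB was at 2.85 (adjusted p = 0.0672, limma), LYZ2 at 1.82 (adjusted p = 0.0714) and LYZL4 at -0.35 (adjusted p = 0.0921), and LYZ1 alone passed, at 1.29 (adjusted p = 0.0389).

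Of 24 leukocyte markers on the array 15 were tested, and 5 rose: CTSS, a lysosomal protease, BOLA-DRA, a major histocompatibility class II chain, CD68, a lysosomal protein of macrophages, FCER1G, an Fc receptor subunit, and CD3E, a T-cell receptor chain. BOLA-DRA was not well above background in any GV0 pool and had 131, 103, 180 and 386 in GV1 pools, at least 2.45-fold higher. On these arrays BOLA-DRA and CTSS met the filter only in the GV1 channel. They were above the controls on 3 and 4 arrays in GV1, against 0 and 2 in GV0, so the count of 5 depends partly on the filter. CD68 had 209 to 315 in GV1 and 135 to 154 in GV0. The median log2 ratio of the 15 was 0.03, against 0.00199 over all genes, and PTPRC, the pan-leukocyte phosphatase, was not called at -0.50 (adjusted p = 0.178, limma). Their summed signal was 2827 to 5204 in GV1 pools and 2401 to 7744 in GV0 pools. Without GV1 replicate 3, none of the 15 passed. The part of blood-derived cells in the lysozyme and leukocyte marker values was not tested. Red blood cell markers had 0 of 5 called, with 1 at an unadjusted p under 0.05 (limma).

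Of the matrix list 5 genes rose and of the theca and stroma list 1, and area 3 carried much of the size. The matrix, theca and stroma, and interferon lists had 16.7%, 10.5% and 7.69% called in either direction, against 9.63% of all genes. SPP1, the secreted phosphoprotein osteopontin, had signals of 137, 97, 1290 and 593 in GV1 pools and 75, 96, 83 and 85 in GV0 pools. No GV0 pool was well above background, so the size of its fitted log2 ratio, 1.91, is uncertain. Area 2 was at 0.02 on the log2 scale and areas 3 and 4 at 3.96 and 2.80. PDGFRA, a receptor of platelet-derived growth factor, had 888, 1117, 6071 and 386 in GV1 and 497, 331, 425 and 278 in GV0, and the groups overlapped. Without GV1 replicate 3 its log2 ratio was 1.02 (adjusted p = 0.0837, limma), against 1.72 with it, and that of SPP1 was 1.23 (adjusted p = 0.128), against 1.91. Of 36 matrix genes tested, SPP1, POSTN, LAMB1, COL6A2 and COL4A4 rose and ELN fell, with a median of 0.14. Their mean ratio by area was 0.25, -0.08, 0.88 and 0.03. Without GV1 replicate 3 none rose, 1 fell and the median was 0.03. PDGFRA was the only one of the 19 theca and stroma markers to rise, and CYP17A1, the androgen-making enzyme of theca cells, fell to 113 to 132 in GV1 pools, against 134 to 169 in GV0. Interferon response genes had 2 of 26 higher, PARP9 and PSMB8, and the list's mean ratio was 0.80 in area 3 and 0.04 to 0.24 elsewhere. Without GV1 replicate 3, 1 of the 26 rose. PSMB8, an immunoproteasome subunit, then had a log2 ratio of 0.44 (adjusted p = 0.0462, limma).

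Of 15 epithelial markers tested 3 fell, and of 12 endothelial markers 4 fell, which is 20% and 33.3%, against 5.78% of all genes, and none rose. WFDC2, a secreted protease inhibitor of epithelia, had signals of 179, 131, 176 and 215 in GV1 pools and 795, 507, 932 and 640 in GV0 pools, a log2 ratio of -2.02 ± 0.20 (SE, adjusted p = 0.00038, limma). KRT8, an intermediate filament protein of simple epithelia that granulosa cells can also make, had 3221, 9618, 8200 and 7922 in GV1 and 32124, 40739, 13837 and 13376 in GV0. Its ratio was -3.32 and -2.08 in areas 1 and 2 and about -0.75 in areas 3 and 4, where the GV0 pools were lower. KRT18, the partner of KRT8, did not pass at -0.53 (adjusted p = 0.425, limma), nor did CLDN11, a tight-junction protein, at -2.30 (adjusted p = 0.0543), although all 4 of its GV1 signals, 114 to 338, were below its GV0 signals of 537 to 2544. KRT7 fell by 0.22 on the log2 scale, and the summed signal of the 15 was 33311 to 37403 in GV1 pools and 37672 to 62205 in GV0 pools. The endothelial markers that fell were EGFL7, ESAM, TIE1 and SOX17, with log2 ratios of -0.46 to -0.20 at GV1 signals of 115 to 229 and GV0 signals of 132 to 304. Their summed signal was 1770 to 1859 in GV1 pools and 1951 to 2104 in GV0 pools. PECAM1 did not pass the filter on dim probes, and VWF was not called at -0.10.

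Of 23 genes of cumulus and granulosa identity, WT1 and NR5A1 fell and none rose, which is 8.7% called, near the 9.63% of all genes, and the median was 0.04. WT1, the zinc-finger factor of immature granulosa, had signals of 141, 213, 111 and 148 in GV1 pools and 193, 277, 287 and 313 in GV0 pools, a log2 ratio of -0.82 ± 0.19 (SE), and its other 2 probes gave -0.60 and 0.05. NR5A1, the steroidogenic factor SF-1, had 205 to 222 in GV1 and 259 to 293 in GV0. INHA was higher on 4 of 4 arrays at 0.62 ± 0.22 (SE) without passing (adjusted p = 0.0978, limma), and its partner INHBA was at 0.41 ± 0.17 (SE, adjusted p = 0.151). The FSH receptor FSHR was at 0.30 ± 0.17 (SE), the gap junction protein GJA1 at 0.08 ± 0.12 (SE), and aromatase, CYP19A1, at 0.04 ± 0.25 (SE). AMH was at -0.12 ± 0.33 (SE), with GV1 signals of 3285 to 4636 and GV0 signals of 3109 to 5552. KITLG, the ligand by which granulosa cells act on the oocyte's KIT receptor, had 173 to 215 in GV1 and 227 to 309 in GV0 and did not pass (-0.45, adjusted p = 0.126). Of 20 expansion genes 15% were called: the progesterone receptor PGR rose to 601 to 932 in GV1 pools, against 226 to 510 in GV0. GREM1, an antagonist of bone morphogenetic proteins, and HAPLN1, which links hyaluronan to proteoglycans, fell. HAPLN1 was not well above background in any GV1 pool, with 107 to 120 in GV1 and 124 to 148 in GV0. Its log2 ratio was -0.26, and on these arrays it met the filter only in the GV0 channel. HAS2, PTGS2, PTX3 and TNFAIP6, the classical expansion genes, were at 0.61, -0.29, -0.22 and 0.24, with adjusted p-values of 0.189 to 0.685.

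Steroid genes moved in both directions, and 31.8% of them were called, against 9.63% of all genes. Of 22 tested, NPC1 and NPC2, which export cholesterol from lysosomes, and SCARB1, the receptor for high-density lipoprotein, rose. NPC2 had signals of 1483 to 2013 in GV1 and 1042 to 1200 in GV0, a log2 ratio of 0.57 ± 0.10 (SE, adjusted p = 0.00797, limma). SOAT1, which esterifies cholesterol, fell, with 3657 to 4729 in GV1 and 4810 to 6759 in GV0. CYP17A1 and the cortisol-converting enzymes HSD11B1 and HSD11B2 also fell. CYP17A1 and HSD11B2 were above the negative controls on only 2 of 4 GV1 arrays. Without GV1 replicate 3, NPC1, SCARB1, SOAT1 and HSD11B2 did not pass (adjusted p = 0.0524 to 0.154, limma). NPC2 and CYP17A1 did (adjusted p = 0.0378 and 0.0284). Among 10 mural granulosa markers GPX3 alone rose, and the median of the 10 was 0.55. CYP11A1, the side-chain cleavage enzyme, was higher on 4 of 4 arrays at 1.08 ± 0.43 (SE) but did not pass (adjusted p = 0.135), and without GV1 replicate 3 the median of the 10 was 0.20.

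**Figure D4:**
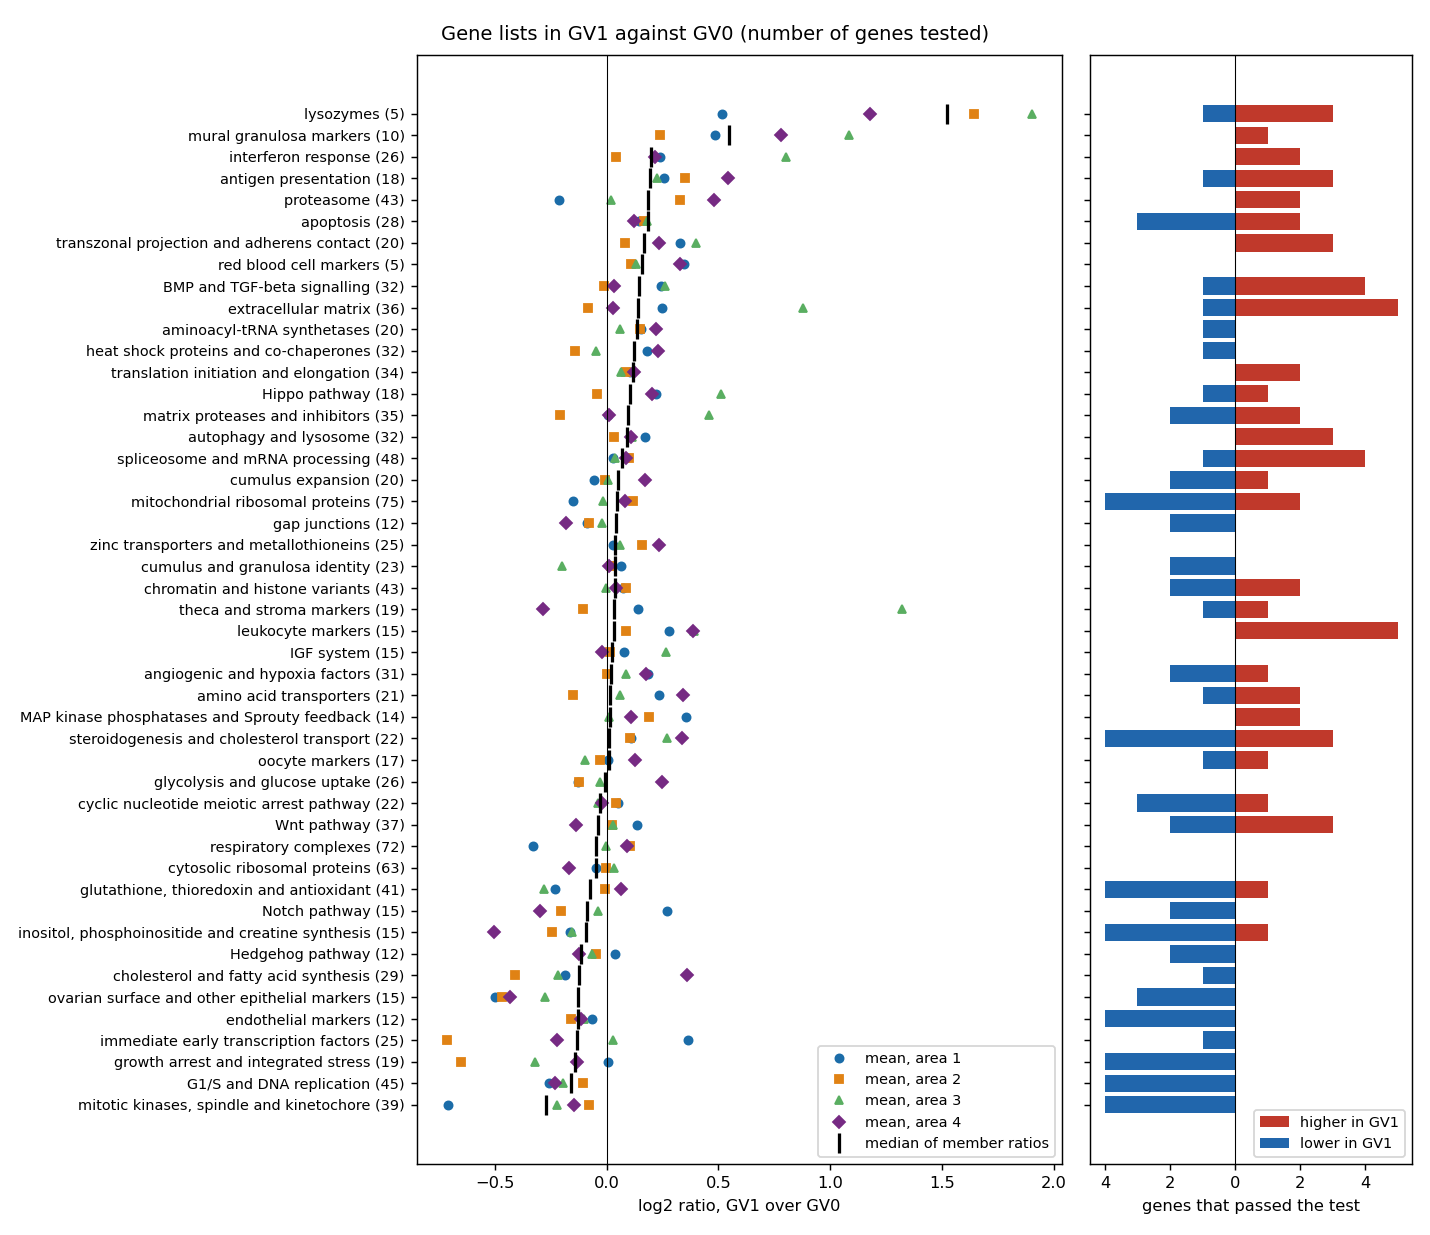
Gene lists ordered by their median log2 ratio of GV1 over GV0 (left panel, black tick), with the mean ratio of the list on each array (coloured symbols by area) and the number of genes that passed the test in each direction (right panel, bars). Area 3 lies far right of the other areas for the theca and stroma list (1.32, against -0.28 to 0.14), and the mitotic list is at the bottom with a median of -0.27.

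Cell-cycle genes were called about as often as all genes, at 10.3% in the mitotic list and 8.89% in the replication list, against 9.63%. Of 39 tested genes of mitotic kinases, spindle and kinetochore, UBE2C, PTTG1, CDC20 and AURKB fell and none rose, and the median was -0.27, against 0.00199 over all genes. AURKB, the kinase that corrects chromosome attachment, had signals of 2685, 2821, 3549 and 3424 in GV1 pools and 3563, 3957, 5172 and 5671 in GV0 pools, a log2 ratio of -0.54 ± 0.10 (SE, adjusted p = 0.00954, limma). CDC20, which switches on the anaphase-promoting complex, had 944 to 1303 in GV1 and 1399 to 2133 in GV0, and UBE2C, the ubiquitin-conjugating enzyme of that complex, 3366 to 5024 in GV1 and 4788 to 8916 in GV0. The mean ratio of the list by area was -0.71, -0.08, -0.22 and -0.15. The kinase BUB1 had 4101 to 6276 in GV1 pools, and 10153 in GV0 pool 1 beside 5576 to 7311 in the other GV0 pools, so its area 1 ratio of -1.31 went with a high GV0 value. It did not pass (-0.53, adjusted p = 0.171). In the list for G1/S and DNA replication, E2F1, RPA2, RRM1 and CDK4 fell out of 45 tested, with a median of -0.16. RPA2, which coats single-stranded DNA, had 4934 to 6128 in GV1 and 7284 to 8543 in GV0, a log2 ratio of -0.55 ± 0.09 (SE). RRM1, a ribonucleotide reductase subunit, had only 3 arrays, since its spot in area 1 was marked as poor in the scanner table.

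Of 19 growth-arrest and integrated-stress genes 4 passed, 21.1% against 9.63% of all genes, and of 25 early-response genes 1 passed, 4%. EGR1, a zinc-finger factor induced within minutes of stimulation, had signals of 15857, 2046, 5991 and 4176 in GV1 pools and 17966, 15156, 12832 and 20087 in GV0 pools. Its log2 ratio was -1.61 ± 0.39 (SE, adjusted p = 0.0257, limma), but area 1 was at -0.18. It was the only one of 25 early genes to pass, and the list's mean ratio was 0.36, -0.72, 0.03 and -0.22 by area. JUN, the AP-1 subunit, had 4843 in GV1 pool 1 against 599 to 1631 in the other GV1 pools, and 1500 to 3643 in GV0 (adjusted p = 0.49). Of the growth-arrest and integrated-stress genes, TXNIP, GADD45B, GADD45G and SESN2 fell and none rose. The median of that list was -0.14, with 8 genes above 0 and 11 below. TXNIP, which binds thioredoxin, had 4576, 1069, 895 and 1960 in GV1 and 7323, 4947, 5786 and 5069 in GV0, and its other 3 probes were also lower. GADD45G had 3417 to 4863 in GV1 and 6643 to 10036 in GV0, a log2 ratio of -0.96 ± 0.16 (SE). GADD45B, its relative, was at 0.08 in area 1 and at -1.28 or lower in the others. Pool 1 of GV1 thus had the highest GV1 signal for EGR1, JUN, TXNIP and GADD45B. Of 32 heat shock proteins and co-chaperones DNAJB1 alone passed, with 772 to 1440 in GV1 and 1697 to 4295 in GV0, while the list's median was 0.12. In the feedback list of 14 genes 14.3% were called. SPRY2 rose and so did DUSP6, a phosphatase that inactivates ERK, with 293 to 432 in GV1 and 190 to 321 in GV0.

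Respiratory, cytosolic ribosomal, glycolysis and zinc lists were without calls. Called shares were 8% for mitochondrial ribosomal proteins, 5.88% for translation factors, 10.4% for the spliceosome and 4.65% for the proteasome, against 9.63% of all genes. None of 72 respiratory subunits, 63 cytosolic ribosomal proteins, 26 glycolysis genes or 25 zinc transporters and metallothioneins passed, with 6, 3, 3 and 4 at an unadjusted p under 0.05 (limma), and the medians of these lists lay between -0.05 and 0.04. Among 75 mitochondrial ribosomal proteins, MRPS35 and MRPS9 rose and MRPL18, MRPL34, MRPL38 and MRPL54 fell. Translation factors had 2 of 34 higher, PABPC1 and EIF4G2, an initiation factor of cap-independent translation, with 32497 to 35200 in GV1 and 23818 to 28200 in GV0. The spliceosome list had CLK4, SF3B1, TRA2A and SF3B2 higher and HNRNPK lower out of 48. SF3B1, a core subunit of the U2 particle, had 19083 to 22407 in GV1 and 14978 to 16970 in GV0, a log2 ratio of 0.36 ± 0.07 (SE, adjusted p = 0.0103, limma). HNRNPK was at -0.80, but its other 2 probes were at 0.27 and 0.33, so the direction depended on the probe. In the proteasome list PSMB8 and the activator PSME1 rose out of 43, with a median of 0.18 and area means of -0.21, 0.33, 0.02 and 0.48.

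In the list for inositol and creatine, 33.3% of 15 genes tested were called, against 9.63% of all genes. The list holds ISYNA1 and GATM, which are among the genes that fell furthest. It was chosen with earlier results of these data known, so this share tests nothing. ISYNA1, GATM, the creatine transporter SLC6A8 and CKMT1A fell and CKB, the cytosolic creatine kinase, rose. SLC6A8 had signals of 947 to 1202 in GV1 pools and 1386 to 1613 in GV0 pools, a log2 ratio of -0.48 ± 0.08 (SE, adjusted p = 0.00565, limma). CKB had 2211, 809, 1121 and 1055 in GV1 and 981, 538, 465 and 547 in GV0, a log2 ratio of 0.99 ± 0.17 (SE), although its other probe was at -0.40. Among 41 antioxidant genes, GSTA1, TXNIP, TXN2 and SOD3 fell and GPX3 rose, or 12.2% called. GSTA1, a glutathione transferase, had 903, 1518, 868 and 768 in GV1 and 2471, 2165, 4623 and 6012 in GV0. Amino acid transporters SLC38A1 and SLC38A2 rose and SLC1A5 fell, out of 21, or 14.3% called. SLC38A2, a sodium-coupled neutral amino acid transporter, had 15188 to 25818 in GV1 and 11925 to 15726 in GV0, and both other probes were also higher. Of 29 genes for cholesterol and fatty acid synthesis, only the desaturase FADS1 passed, at -0.73 with ratios of -1.47 to -0.14.

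Contact and signalling genes gave scattered calls. In the lists with calls, the share called ran from 11.1% (Hippo) to 16.7% (connexins and Hedgehog), against 9.63% of all genes. Of 20 genes for transzonal projections and adherens contacts, ENAH, CTNNB1 and MYO10 rose and none fell, with a median of 0.17. CTNNB1, the beta-catenin of adherens junctions and Wnt signalling, had signals of 20470, 23268, 20091 and 19891 in GV1 pools and 15923, 9657, 13579 and 10891 in GV0 pools, a log2 ratio of 0.77 ± 0.18 (SE, adjusted p = 0.0242, limma). ENAH, an actin filament elongation factor, had 235 to 258 in GV1 and 62 to 169 in GV0, and MYO10, the motor of filopodia, was at 0.32. Connexins GJA5 and GJB5 fell out of 12, but the other 2 probes of GJB5 were at -0.21 and 0.44, so its direction depended on the probe. Of 37 Wnt genes, CCDC88C, a Dishevelled-binding protein, CTNNB1 and the R-spondin receptor LGR4 rose and the ligands WNT6 and WNT9A fell. CCDC88C had 403, 439, 759 and 317 in GV1 and 92, 149, 205 and 215 in GV0. In the bone morphogenetic protein and TGF-beta list, the inhibitors SKIL and NOG, the receptor ACVR1 and the shared mediator SMAD4 rose and GREM1 fell, out of 32. SKIL had 306 to 336 in GV1 and 147 to 192 in GV0. HES1, a target of Notch, fell to 191 to 241 in GV1 pools, against 253 to 314 in GV0, as did MFNG, a modifier of Notch receptors, at -0.21, although with median spot intensity it was at 0.0970. GAS1 and SHH fell in the Hedgehog list, and in the Hippo list the kinase LATS2 rose (1779 to 3295 in GV1, 1170 to 1751 in GV0) and the cofactor VGLL3 fell. None of 15 IGF genes passed, with 2 at an unadjusted p under 0.05 (limma).

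Cyclic nucleotide genes, cell death genes and the smaller lists had calls in both directions. Shares called were 18.2% for cyclic nucleotide genes, 17.9% for apoptosis, 9.38% for autophagy and 9.3% for chromatin, against 9.63% of all genes. Oocyte markers had 11.8%, aminoacyl-tRNA synthetases 5%, antigen presentation 22.2% and proteases with inhibitors 11.4%. Of 22 genes of the cyclic nucleotide pathway that holds the oocyte in arrest, IMPDH2, which makes guanine nucleotides, rose, with signals of 1412 to 2154 in GV1 and 1043 to 1317 in GV0. The phosphodiesterases PDE4A, PDE10A and PDE4D fell, PDE4D and PDE10A at GV1 signals of 100 to 123, and the natriuretic peptide gene NPPC was at 0.01 ± 0.07 (SE). Apoptosis genes had APAF1 and CFLAR higher and FADD, BAX and BCL2 lower out of 28. APAF1, the apoptosome scaffold, had 248 to 319 in GV1 and 79 to 192 in GV0. In the autophagy and lysosome list GABARAPL1, SQSTM1 and LAMP2 rose out of 32. SQSTM1, the cargo receptor p62, had 7110 to 9095 in GV1 and 4326 to 6207 in GV0. Chromatin genes YEATS4 and ARID1A rose and TET3 and H2AX fell out of 43. In the oocyte list MOS, the kinase of meiotic arrest, fell, with 239 to 323 in GV1 and 509 to 574 in GV0, and 2 other MOS probes were lower too. The summed signal of the 17 oocyte markers was 2662 to 2889 in GV1 and 2713 to 3084 in GV0. ZP4, a zona protein, rose slightly but was not well above background in GV0. Of the remaining calls, AIMP2 was lower among 20 aminoacyl-tRNA synthetase genes. TAP2, CTSS and BOLA-DRA were higher and BOLA-DQA2 lower among 18 antigen presentation genes. BOLA-DQA2 was not well above background in any GV1 pool, with 101 to 109, against 118 to 126 in GV0. Among 35 proteases and inhibitors, ADAMTS5 and SERPINA1 were higher and SERPINA5 and SERPINF1 lower. SERPINA1 was at -0.00316 with median spot intensity. SERPINA5, an inhibitor of plasminogen activators and protein C, had 961, 826, 1118 and 691 in GV1 and 1406, 3763, 4476 and 7819 in GV0.

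The later stages were set side by side with GV1. All 3 stages appeared by their values to use the same GV0 pools, which the labels do not state, so their ratios would share the GV0 values. ANGPT2 had a log2 ratio over GV0 of 2.00 in GV1, 1.90 in GV2 and 2.35 in GV3, PLAC9 of -2.04, -1.94 and -2.01, and ISYNA1 of -2.73, -2.92 and -2.68. The differences themselves cancel the dye but set slide against slide, so slide and stage cannot be told apart. No probe passed between GV1 and GV2 or between GV1 and GV3 (0% of 35891, limma), with 406 and 678 probes at an unadjusted p under 0.05, which is 1.13% and 1.89%. With the replicate block there were again no calls, at 1473 and 2810 unadjusted. For ANGPT2, GV1 minus GV2 was 0.10 with a 95% interval of -0.84 to 1.04, and GV1 minus GV3 was -0.35 (-1.28 to 0.59). Intervals between stages, here and below, are from the fit without the block. They leave any sharing of GV0 pools by area out of account, and may be wider than intervals that use it.

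A few named genes stood further apart between GV1 and GV3 without passing the correction. CKB was at 0.99 in GV1, 0.67 in GV2 and 0.00 in GV3, and GV1 minus GV3 was 0.99 (95% interval 0.46 to 1.52). AURKB was at -0.54, -0.57 and -1.14, with GV1 minus GV3 at 0.60 (0.28 to 0.92), and UBE2C at -0.76, -0.74 and -1.40, with a difference of 0.64 (0.06 to 1.23). IHH, the Hedgehog ligand of granulosa, was at -0.29, -0.29 and -0.88, with a difference of 0.59 (0.27 to 0.90). EGR1 was at -1.61, -2.35 and -2.80, with a difference of 1.19 (-0.02 to 2.40). For SPP1, at 1.91 in GV1 and 0.55 in GV2, GV1 minus GV2 was 1.36 (-0.23 to 2.95). All of these adjusted p-values were close to 1 (limma), in the fit that does not pair arrays by area.

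**Figure D5:**
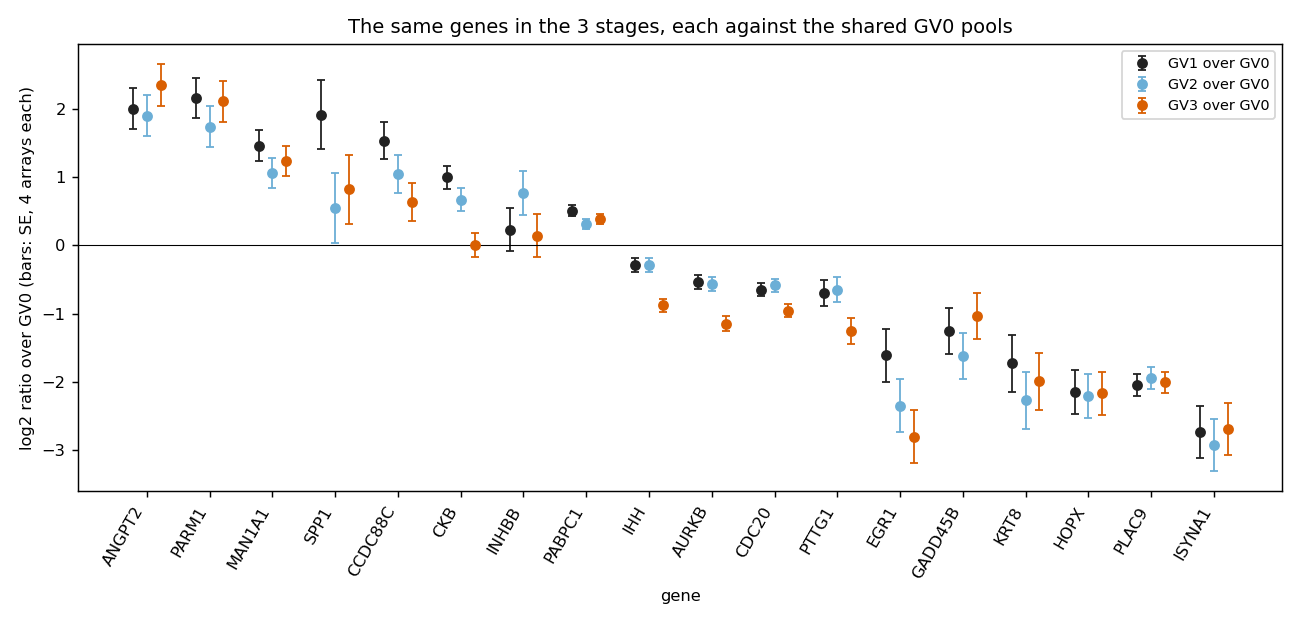
Log2 ratio over GV0 (vertical axis, mean of 4 arrays and SE of the fit) of 18 genes (horizontal axis) in GV1, GV2 and GV3. The 3 points lie close together for ANGPT2, HOPX and PLAC9, while CKB falls to 0.00 and AURKB to -1.14 in GV3; no difference between stages passed the test.

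Probes without a gene name made up 2068 of the 3957 calls. Of 17444 such probes tested, 889 were higher and 1179 lower in GV1, 11.9%, beside 11% of all probes. The highest named by its probe was EMBV3_05315, with log2 ratios of 1.58, 1.398, 3.23 and 3.76 on the 4 arrays and a mean of 2.49 ± 0.56 (SE, adjusted p = 0.0188, limma). EMBV3_11535 was evenly lower, from -3.44 to -2.47, with a mean of -2.89 ± 0.39 (SE, adjusted p = 0.00189, limma).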

How the data were processed

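Cumulus RNA was hybridised to a bovine oligonucleotide array (45220 spots, 43794 probes) on 3 slides of 4 areas. The authors deposited scanner tables of mean, median and local background intensity of Cy5 and Cy3 per spot, with a Flag column of other type (0 for spots kept), per the file headers; scanner software is not given in the sources used here. The authors' deposited series values are log2 ratios of Cy5 over Cy3, and they matched median intensity after loess (correlation of 0.999987 or more on each array).

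In limma 3.58.1 (R 4.3.3, statmod 1.5.0), mean intensity was background-corrected by normexp (offset 50, fitted on Flag 0 spots) and loess-normalised within arrays (span 0.3, controls and flawed spots weighted 0). Normalised signals are the channel values after a further Aquantile step, and include the offset. A probe was kept where one channel exceeded the mean plus 2 SD of 153 negative control spots on 3 or more arrays of some stage (7903 of 43794 dropped). One model over 12 arrays gave a coefficient per stage, with Benjamini-Hochberg adjustment over 35891 probes. Known changes were also planted in simulated data and fitted, but the number of false calls is not given here. Of 15229 gene symbols, 14141 were current, 1049 were renamed and 39 were unmatched in RefSeq names (assembly ARS-UCD2.0); 22004 probes had no symbol.

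The labels do not say which GV0 pool an area held, so this was read from the values. Deviations of the ratio correlated at 0.493 to 0.736 between same areas and at -0.465 to 0.0666 between different areas. GV0 log intensities correlated at 0.988 to 0.997 and 0.923 to 0.973. Same-numbered areas were therefore taken to share their GV0 pool. Named were, of genes called with 1 sign on 4 of 4 arrays and detected in the brighter channel, the 25 highest and 25 lowest by ratio and 10 each way by moderated t, up to 6 called members of each of 47 lists, and the identity genes with HAS2, PTGS2, PTX3 and TNFAIP6. Genes and lists were chosen with earlier results of these data known. No dates or probe sequences were used here.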

Additional observations from a re-analysis of the deposited data

Results flagged for a closer look

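In 6 of 235 sets of 4 values examined (188 genes and 47 list means, 2.55%), one array lay far from the other 3 by Dixon's test at 95%, and chance alone marks about 1 in 20 sets. AMHR2, the receptor of anti-Müllerian hormone, had a log2 ratio of 0.61 in area 2, where its signals were 143 in GV1 and 93 in GV0. In the other areas its ratio was -1.41 to -1.13, with signals of 106 to 183 in GV1 and 232 to 486 in GV0. Area 1 was the outlying array for CDC20 (-0.997, others -0.57 to -0.48), for CFLAR, a caspase-8 regulator (0.00916, others 0.34 to 0.38), and for TXN2, mitochondrial thioredoxin (-0.19, others -0.58 to -0.53). CD3E was at 0.46 in area 3 and at 0.20 to 0.23 in the others, at GV1 signals of 136 to 151. PHF19, a Polycomb-associated protein, was at -0.53 in area 4 and at -0.43 to -0.41 in the others.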

How the results depend on the processing

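The number of probes called between GV1 and GV0, 3957 (1292 genes), moved by more than 1.5 times under several alternatives: 281 (121 genes) with median in place of mean spot intensity, 165 (78) with all spots in the normexp fit, 306 (126) with the authors' deposited ratios, 1012 (420) with probes detected in both channels on every array, 870 (368) when a 1.5-fold change was required too, 0 (0) with the 4 GV1 arrays alone, and 10746 (4036) with the replicate block. Median centring without loess gave 5749 probes and 2007 genes. Leaving out 1 array or 1 area left 1029 to 2659 probes and 330 to 978 genes; the lowest, 1029 and 330, was without area 2, and without GV1 replicate 3 it was 1787 and 571. Of the called probes 41.1% were higher in GV1, 30.9% with all spots in the normexp fit, 49.5% with the block and 56.2% with the fold. Of the genes called, 40.0% were higher, 50.4% with median intensity, 49.2% with the deposited ratios. Other backgrounds, scaling, weights, no filter and area as a random effect (correlation 0.466) gave 3391 to 5024 probes. GV1 against GV2 and against GV3 gave 0 calls under every alternative run. Of 164 named genes called, 20 were called in all alternatives run except the 4 GV1 arrays alone, and 54 in fewer than 50% of them. Signs turned for genes near 0. AMH was at 0.0286 with median intensity, 0.167 with median centring and 0.0164 with the deposited ratios, and at -0.331 to 0.0554 when an array or area was left out. HSD17B1 was at -0.0549 (median intensity), -0.0264 (scaling), -0.0638 (deposited) and -0.044 (weights), and at -0.292 to 0.177. NPPC was at -0.0262 (no background correction), -0.0845 (median centring), -0.0329 (deposited) and -0.00144 (weights), and at -0.0613 to 0.0763. MFNG was at 0.097 (median intensity) and 0.089 (deposited), SERPINA1 at -0.00316 (median intensity), IHH at 0.185 (median centring) and NR5A2 at 0.0458 (mean of probes). When an array or area was left out, GATA4 ranged over -0.0354 to 0.303, CYP19A1 over -0.048 to 0.168 and PTX3 over -0.52 to 0.0034. The cause of these shifts was not tested. Signal near the negative controls limits the ratios of dim genes.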
